A study of Saccharomyces cerevisiae with 6 samples.

Results

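The pentose phosphate pathway genes of budding yeast (Saccharomyces cerevisiae) were examined in poly(A)-selected RNA from young and aged cells. The 10 members were taken by name, as genes of the enzymes of the pathway, and were ZWF1, SOL3, SOL4, GND1, GND2, RPE1, TKL1, TKL2, TAL1 and NQM1. All 10 were among the 7127 features of the count table and among the 6755 that passed a filter on low counts. The 3 young libraries came from exponential cultures in synthetic complete (SC) medium, and the 3 aged libraries from cells kept for 24 h in a ministat aging device, which retains mother cells. All libraries came from WT prototrophic cells of strain CGY4.51 with the genotype MAT@ and carried batch numbers 1 to 3, with 1 young and 1 aged library per number. The methods describe device cultures in SC medium with methyl-alpha-D-mannopyranoside on bead-labelled cells, and for young cells only exponential culture. Age, the device and its medium therefore cannot be told apart in these samples. The share of daughter cells in the aged samples is not given in the sources used here.

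As background, the pathway runs beside glycolysis and has 2 branches. The oxidative branch takes glucose 6-phosphate to ribulose 5-phosphate and is a main source of NADPH, the reductant for biosynthesis and for glutathione and thioredoxin. The non-oxidative branch interconverts sugar phosphates reversibly, supplies ribose 5-phosphate for nucleotides and erythrose 4-phosphate for aromatic amino acids, and returns carbon to glycolysis. In yeast 4 of its steps are encoded by a paralog pair, in which SOL3, GND1, TKL1 and TAL1 are the major genes during growth on glucose, and SOL4, GND2, TKL2 and NQM1 are the minor genes, known for induction by stress or away from glucose.

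The libraries held 29230292 to 41650202 estimated counts. Fold changes are aged against young, on counts scaled by the trimmed mean of M-values (TMM), tested by quasi-likelihood in edgeR. The p-values were adjusted by the Benjamini-Hochberg method over all 6755 features, and those under 0.05 after adjustment were called. Levels are given as CPM, the TMM-scaled counts relative to the total of the library, and levels of different genes were compared per kb of coding length. These are bulk samples, in which a change in the share of cells of a kind and a change in RNA per cell cannot be told apart. The labelled alpha mating type was checked on its markers, with none at 0. The 4 markers of alpha cells summed to between 4386 and 5375 CPM in young and between 3389 and 3718 CPM in aged libraries. The 6 markers of a cells summed to between 31.7 and 38.2 CPM in young and between 35.8 and 38.7 CPM in aged libraries. Of the alpha markers 1 was called higher and 2 lower, and of the a markers 3 higher and 0 lower. The shares over all features were 32.7% higher and 30.8% lower. The markers of daughter cells (8 genes) summed to between 1060 and 1125 CPM in young and between 1215 and 1340 CPM in aged libraries. Of these 8 genes, 4 were called higher and 1 lower, against 32.7% and 30.8% of all features. Their part in the results below was not tested.

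Most transcripts of the pathway were higher in aged cells, with the largest fold changes in minor paralogs, while RPE1 and TKL1 were not called. Of the 10 members, 8 were called higher and 0 lower, against 32.7% of all features called higher and 30.8% called lower. The called genes were 5 of 5 in the oxidative branch and 3 of 5 in the non-oxidative branch, with medians of 0.60 and 0.61 on the log2 scale. A called rise of at least 2-fold was found for 4 members, which were exactly the minor paralogs SOL4, GND2, TKL2 and NQM1, against 5.91% of all features. The median log2 fold change was 0.61 over the 10 members, 2.33 over the 4 minor paralogs and 0.35 over the 4 major paralogs, against 0.025 over all features. Every aged library lay above every young library for 8 members (36.3% of all features did so), and every aged library lay below for 1 member, RPE1 (33.8% of all features). The summed level of the 10 genes was 984 to 1015 CPM in young and 1369 to 1458 CPM in aged libraries.

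**Figure D1:**
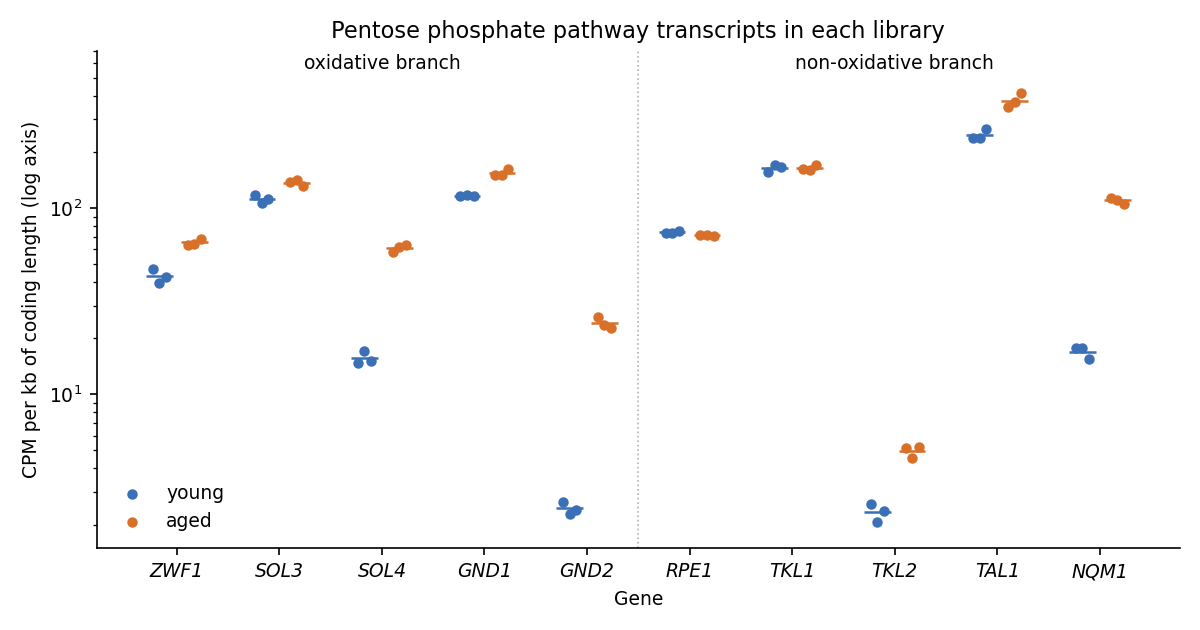
Level of each member in each library, in CPM per kb of coding length on a log axis, with the genes of the oxidative branch on the left and those of the non-oxidative branch on the right. Points are the 3 young (blue) and 3 aged (orange) libraries and short lines are group means. The groups are apart for all genes but TKL1, and widest apart for GND2, which went from a mean of 2.44 to 24.1 CPM per kb.

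ZWF1 (YNL241C, chrXIV:196426-197943 of build R64, minus strand) encodes glucose-6-phosphate dehydrogenase, which makes the committed step of the oxidative branch and has no paralog. Its level was 71.9, 60.2 and 64.5 CPM in young replicates 1 to 3 and 96.8, 98.0 and 104 CPM in aged replicates 1 to 3. The groups did not overlap, and ZWF1 rose by 0.60 on the log2 scale (SE 0.08, 95% confidence interval 0.43 to 0.78, edgeR adjusted p = 0.000109), or 1.52-fold. The rise was 0.43, 0.70 and 0.68 within batches 1, 2 and 3.

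The lactone made by Zwf1p is hydrolysed by 6-phosphogluconolactonase, encoded by SOL3 and SOL4. SOL3 (YHR163W, chrVIII:423724-424473, plus strand), the major gene, was at 88.1, 79.8 and 83.8 CPM in young and 104, 106 and 98.7 CPM in aged replicates 1 to 3. The groups stood apart by a small margin, and the rise was 0.29 (SE 0.07, interval 0.14 to 0.45, edgeR adjusted p = 0.00408). SOL4 (YGR248W, chrVII:985972-986739, plus strand) was at 11.4, 13.2 and 11.6 CPM in young and 44.4, 47.2 and 48.5 CPM in aged replicates. All aged libraries were more than 3-fold above all young libraries, and the rise was 1.96 (SE 0.08, interval 1.77 to 2.14, edgeR adjusted p = 6.32e-08), the third largest of the members and rank 79 of 6755 features.

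GND1 and GND2 encode 6-phosphogluconate dehydrogenase, which makes the NADPH of the last oxidative step. GND1 (YHR183W, chrVIII:470960-472429, plus strand) was at 172, 174 and 170.0 CPM in young and 223, 220.3 and 239 CPM in aged replicates 1 to 3. The libraries of each group were close together, and GND1 rose by 0.40 (SE 0.07, interval 0.24 to 0.57, edgeR adjusted p = 0.000745). GND2 (YGR256W, chrVII:1004624-1006102, plus strand) was nearly silent in young cells, at 3.92, 3.35 and 3.55 CPM from 89.5 to 106.5 estimated counts, and had 38.3, 34.9 and 33.7 CPM in aged cells. It had the largest change of the pathway, 3.30 on the log2 scale (SE 0.10, interval 3.07 to 3.53, edgeR adjusted p = 5.16e-09) or 9.85-fold, and ranked 21 of 6755 features by rise.

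In the non-oxidative branch, RPE1 (YJL121C, chrX:190374-191090, minus strand) encodes ribulose-5-phosphate epimerase, which opens the way to xylulose 5-phosphate. Its level was 52.7, 52.8 and 53.8 CPM in young and 51.8, 51.1 and 50.9 CPM in aged replicates. All aged libraries were lower, by a margin that was small beside the error, and RPE1 was not called (log2 fold change −0.05, SE 0.06, interval −0.19 to 0.09, edgeR adjusted p = 0.49).

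TKL1 and TKL2 encode transketolase, which moves a 2-carbon unit between sugar phosphates. TKL1 (YPR074C, chrXVI:692796-694838, minus strand) was at 320.1, 349.7 and 340.5 CPM in young and 333, 328 and 350.1 CPM in aged replicates. The groups overlapped fully, and the log2 fold change was 0.00053 (SE 0.08, interval −0.17 to 0.17, edgeR adjusted p = 0.997). TKL2 (YBR117C, chrII:474392-476437, minus strand), at 5.26, 4.21 and 4.83 CPM in young and 10.6, 9.32 and 10.7 CPM in aged replicates, rose by 1.10 (SE 0.13, interval 0.82 to 1.38, edgeR adjusted p = 5.00e-05). It was the smallest rise among the minor paralogs and, at 113.33 to 142.08 estimated counts in young and 373.5 to 552.83 in aged libraries, rested on the lowest aged counts of the pathway.

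TAL1 and NQM1 encode transaldolase, which moves a 3-carbon unit, and the cellular role of Nqm1p is not well defined. TAL1 (YLR354C, chrXII:836350-837357, minus strand) was at 241, 240.0 and 267 CPM in young and 353, 373 and 417 CPM in aged replicates 1 to 3. It rose by 0.61 (SE 0.09, interval 0.41 to 0.81, edgeR adjusted p = 0.000223), the largest rise of a major paralog. NQM1 (YGR043C, chrVII:580435-581436, minus strand) was at 17.7, 17.8 and 15.5 CPM in young and 114, 111 and 106 CPM in aged replicates. Its rise of 2.7 (SE 0.08, interval 2.52 to 2.87, edgeR adjusted p = 3.76e-09), or 6.48-fold, was the second largest of the pathway and rank 34 of 6755.

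**Figure D2:**
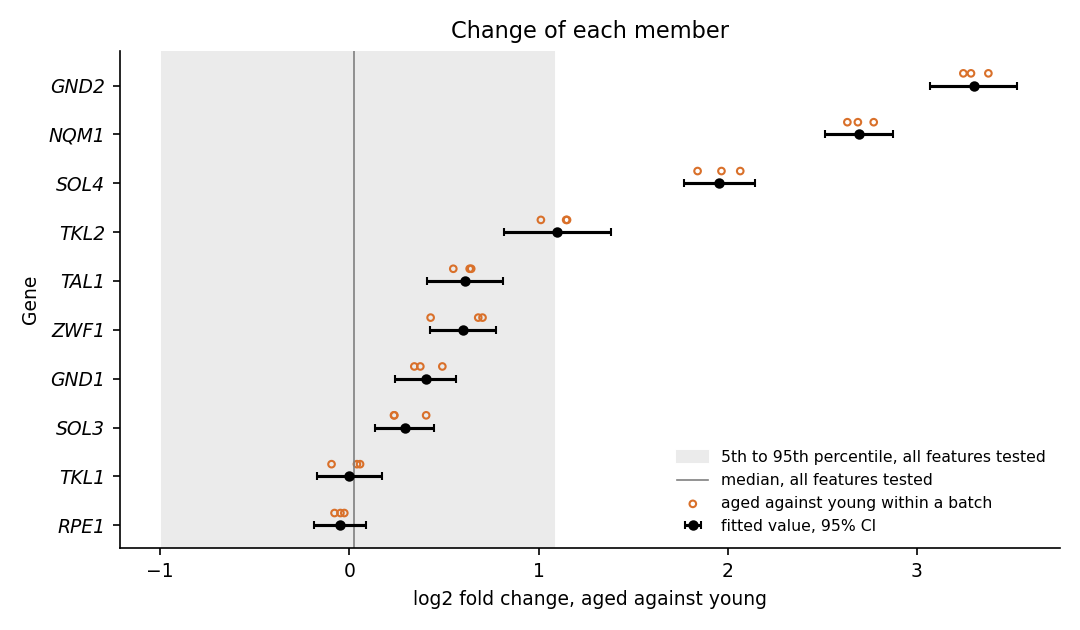
log2 fold change of each member, aged against young, with the edgeR 95% confidence interval (black) and the difference within each of the 3 batch numbers (open circles). The grey band spans the 5th to 95th percentile of all features tested, −0.99 to 1.08. The 4 minor paralogs lie at or beyond its upper edge, the other rising members lie inside it, and TKL1 and RPE1 have intervals across 0.

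The paralogs were then compared within each library, as the ratio of minor to major counts per kb of coding length, which does not depend on how libraries are scaled. SOL4 made up 11.2%, 13.9% and 11.9% of its pair in young and 29.5%, 30.4% and 32.4% in aged replicates 1 to 3. GND2 went from 2.23%, 1.87% and 2.03% to 14.6%, 13.6% and 12.3%. NQM1 went from 6.87%, 6.96% and 5.53% to 24.5%, 23.0% and 20.4%. In all of these the minor gene remained below its major partner in each library, but its share was higher in every aged than in every young library. TKL2 stayed a trace transcript, at 1.61%, 1.19% and 1.39% in young and 3.08%, 2.76% and 2.97% in aged replicates.

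As a log2 ratio, the gain of the minor over the major gene was 2.90 for GND2 over GND1 (means −5.58 ± 0.13 in young and −2.68 ± 0.14 in aged, SD, n = 3). It was 2.09 for NQM1 over TAL1, 1.66 for SOL4 over SOL3 and 1.10 for TKL2 over TKL1. Young and aged libraries did not overlap in any of the 4 pairs, and each had p = 0.1 in a two-sided exact permutation test, the smallest p that 3 against 3 libraries allow (0.1 also after Benjamini-Hochberg adjustment over the 4 pairs). Within batches the gains were 2.75 to 3.04, 1.997 to 2.14, 1.43 to 1.83 and 0.95 to 1.23 in the same order, so that the order GND2, NQM1, SOL4, TKL2 was the same within each batch number.

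**Figure D3:**
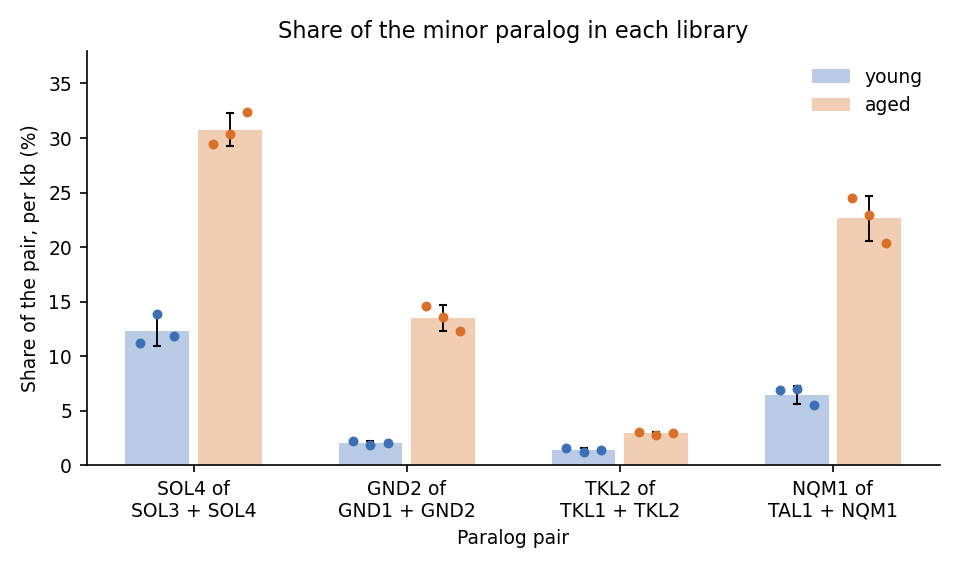
Share of the minor paralog in the summed level of its pair, per kb of coding length, in percent. Bars are means of 3 libraries, error bars are SD and points are libraries, with young in blue and aged in orange. The mean share rose from 12.3% to 30.7% for SOL4, from 2.05% to 13.5% for GND2, from 1.40% to 2.94% for TKL2 and from 6.46% to 22.6% for NQM1.

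Summed over both paralogs, per kb, the transaldolase step grew most, from 264 ± 13.6 to 488 ± 28.3 CPM per kb (SD, n = 3), or 1.85-fold. The lactonase step rose 1.55-fold, from 128 ± 4.41 to 198 ± 4.07 CPM per kb, the 6-phosphogluconate dehydrogenase step 1.5-fold, from 119 ± 1.17 to 179 ± 6.10, and the ZWF1 step 1.52-fold, from 43.2 ± 3.90 to 65.5 ± 2.36. In each of these 4 steps every aged library lay above every young library. With this scaling, the minor paralog supplied 64.2% of the added lactonase transcript, 41.6% of the added transaldolase transcript and 36.4% of the added 6-phosphogluconate dehydrogenase transcript. Unlike the ratios within libraries, these totals and shares depend on the TMM scaling, and they were not computed under other scalings. For SOL3 and SOL4 the rises were 0.10 and 1.76 with an offset on GC content, and 0.80 and 2.48 with total counts alone. The transketolase total was 167 ± 7.18 in young and 169.9 ± 6.03 CPM per kb in aged cells, with overlapping libraries, and the 2.14-fold rise of TKL2 added 2.66 CPM per kb to it.

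**Figure D4:**
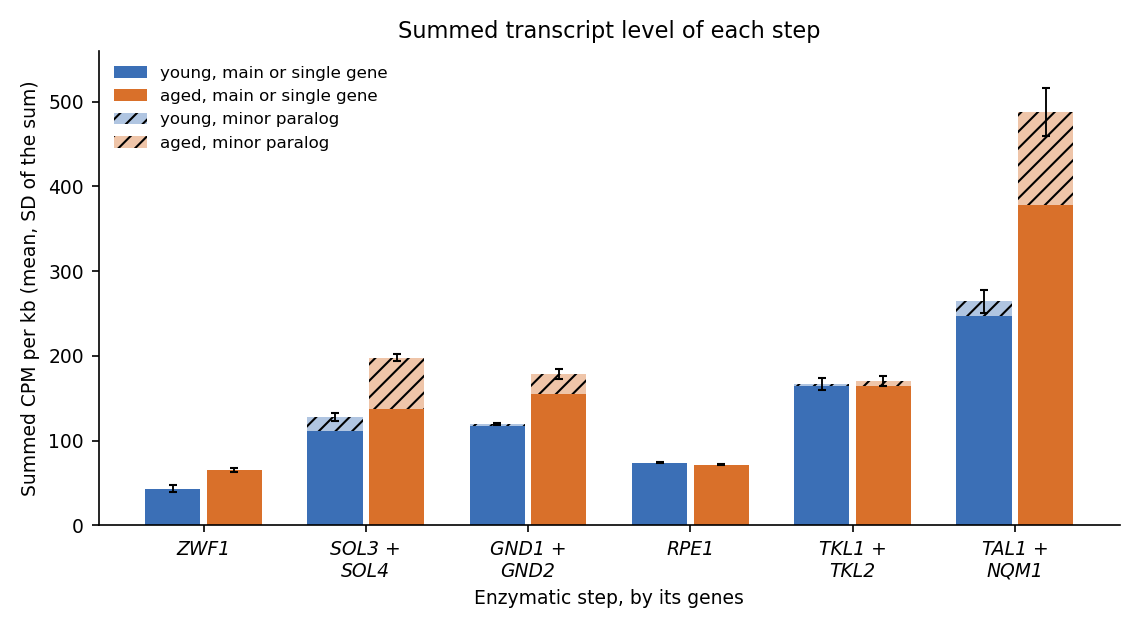
Summed level of the genes of each enzymatic step in CPM per kb of coding length, mean of 3 libraries per group with the SD of the sum as error bar, young in blue and aged in orange. Solid bars are the major or single gene and hatched bars the minor paralog. Totals rose for the ZWF1, SOL, GND and transaldolase steps and were about level for RPE1 and transketolase.

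The order of the levels per kb differed between young and aged cells in the place of NQM1. In young cells it ran TAL1, TKL1, GND1, SOL3, RPE1, ZWF1, NQM1, SOL4, GND2 and TKL2, from 247 down to 2.33 CPM per kb. Neighbours in this order whose libraries overlapped were GND1 and SOL3 (117 and 112), NQM1 and SOL4 (17 and 15.7) and GND2 and TKL2 (2.44 and 2.33). In aged cells NQM1, at 110.0 CPM per kb, stood above RPE1 (71.5) and ZWF1 (65.5), and GND2, at 24.1, stood well above TKL2, at 4.99. SOL4 reached 60.8 CPM per kb, just below ZWF1, and only TKL1 and GND1 (165 and 155) overlapped as neighbours.

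Reads of paralogs can be confused where their sequences are alike. In the R64 reference, coding identity was 79.1% between GND2 and GND1, 69.4% between TKL2 and TKL1, 68.5% between NQM1 and TAL1 and 58.5% between SOL4 and SOL3. The longest stretch identical in both genes of a pair was 20 bases for the GND pair, 17 bases for the transketolase and transaldolase pairs and 8 bases for the SOL pair, and no window of 50 bases was shared. Some rows next to members in systematic name have no entry in the RefSeq annotation, so their overlap was not examined. YHR182C-A held 14.6% to 24.5% as many counts as GND1 and rose by 0.87 (edgeR adjusted p = 6.4e-05), YJL120W held 16.4% to 21.9% as many as RPE1 and was not called (0.13, adjusted p = 0.299). YBR116C held 11.3% to 17.5% as many as TKL2 and rose by 1.00 (adjusted p = 0.0074), against 1.10 for TKL2. Their part in the values of these members was not tested.

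The upstream regions are shown for the GND and transaldolase pairs, whose minor genes had the largest rises. Letters searched on both strands were the stress response element (STRE), AGGGG or its complement CCCCT, bound by Msn2p and Msn4p, and the core CGGNNTTA (TAANNCCG) of the motif of Stb5p, an activator of pathway genes. Each line gives 300 bases of R64, 5′ to 3′ on the strand of the gene, ending 100 bases short of its start codon, with matches to either motif in capitals. The windows are chrVIII:470560-470859 (plus strand, of which 17 bases lie in the gene RGD3) for GND1, chrVII:1004224-1004523 (plus strand, of which 64 bases lie in a tRNA gene) for GND2, chrXII:837458-837757 (minus strand) for TAL1 and chrVII:581537-581836 (minus strand) for NQM1.
GND1: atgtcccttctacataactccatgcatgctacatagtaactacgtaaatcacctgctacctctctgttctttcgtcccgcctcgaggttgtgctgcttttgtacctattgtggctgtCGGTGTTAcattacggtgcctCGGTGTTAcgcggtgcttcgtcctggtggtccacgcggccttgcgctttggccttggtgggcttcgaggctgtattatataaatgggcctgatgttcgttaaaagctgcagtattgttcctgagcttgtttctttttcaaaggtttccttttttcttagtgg
GND2: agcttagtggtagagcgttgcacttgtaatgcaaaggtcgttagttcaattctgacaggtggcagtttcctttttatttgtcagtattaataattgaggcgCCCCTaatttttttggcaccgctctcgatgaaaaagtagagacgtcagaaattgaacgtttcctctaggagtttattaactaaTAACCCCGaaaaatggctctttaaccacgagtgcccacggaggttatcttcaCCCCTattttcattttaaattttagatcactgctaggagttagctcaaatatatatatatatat
TAL1: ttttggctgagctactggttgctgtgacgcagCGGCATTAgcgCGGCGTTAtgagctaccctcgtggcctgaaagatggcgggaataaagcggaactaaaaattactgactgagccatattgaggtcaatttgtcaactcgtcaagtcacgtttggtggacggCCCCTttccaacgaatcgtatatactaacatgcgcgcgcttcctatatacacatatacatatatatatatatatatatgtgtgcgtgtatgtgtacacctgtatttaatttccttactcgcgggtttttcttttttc
NQM1: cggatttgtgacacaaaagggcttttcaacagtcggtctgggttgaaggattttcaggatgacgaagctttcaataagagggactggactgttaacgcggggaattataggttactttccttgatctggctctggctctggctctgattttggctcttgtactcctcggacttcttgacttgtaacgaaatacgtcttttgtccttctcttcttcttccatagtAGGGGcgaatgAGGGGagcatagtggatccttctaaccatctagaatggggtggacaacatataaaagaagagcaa
In these windows GND1 held 2 matches to the Stb5 core and 0 to the STRE, GND2 held 1 and 2, TAL1 held 2 and 1, and NQM1 held 0 and 2.

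Over 500 bases before the start codon, 8 of the 10 members held an STRE match, against 34.1% of 6000 protein-coding genes with a full window. ZWF1 held 5 matches and NQM1 held 3, a number of at least 3 found at 1.83% of genes, GND2 held 2, and GND1 and RPE1 held 0. The Stb5 core was found at 6 members, ZWF1, SOL3, GND1, GND2, TKL1 and TAL1, against 13.2% of genes. GND1 and TAL1 held 2 matches each, and at least 2 were found at 1.1% of genes. The minor paralogs SOL4, TKL2 and NQM1 held an STRE match and no match to the Stb5 core in this window. Their major partners SOL3, TKL1 and TAL1 also held 1 STRE match each, as many as SOL4 and TKL2. No STRE match overlapped a match to the Stb5 core at a member. A match is a run of letters and does not show binding.

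**Figure D5:**
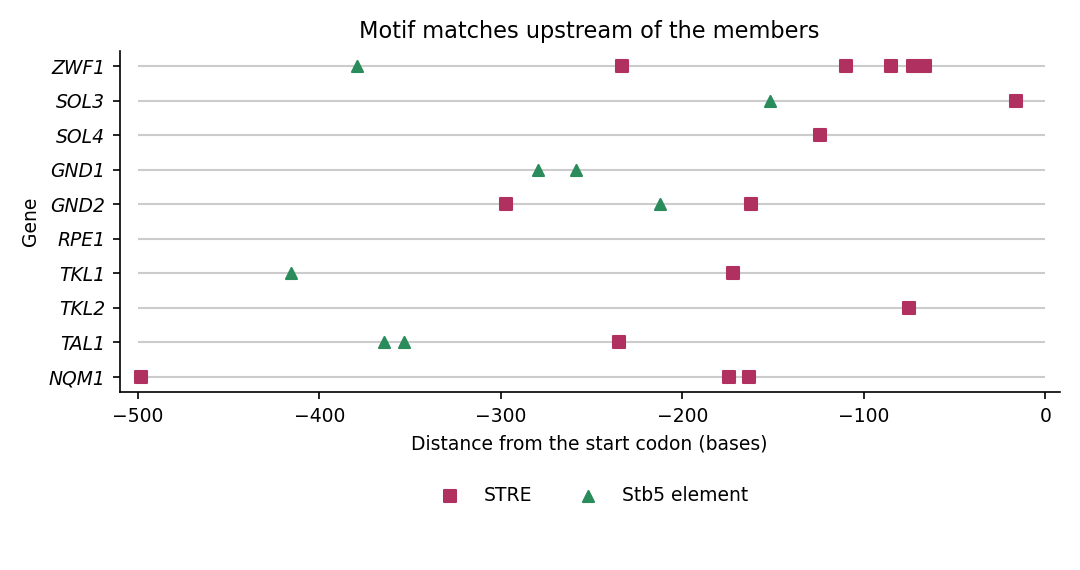
Positions of matches to the STRE (squares) and to the Stb5 core (triangles) in the 500 bases before the start codon of each member, on either strand, with the distance from the start codon in bases on the x axis. RPE1 has no match, ZWF1 has 5 STRE matches, and GND1 has 2 matches to the Stb5 core alone.

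Of 6 further genes, from the pathway, its entry points and the relatives of SOL3, 4 were called higher and 0 lower, with a median log2 fold change of 0.36. This count and those of the lists below stand beside 32.7% of all features called higher and 30.8% called lower. RKI1, the ribose-5-phosphate isomerase that stands beside RPE1, had 158 ± 9.48 CPM in young cells, 161 ± 5.85 CPM in aged cells and no call (0.026, SE 0.08, edgeR adjusted p = 0.781). The xylulokinase gene XKS1 rose by 0.49, the ribokinase gene RBK1 by 0.47 and SOL2, a relative of SOL3, by 0.45, while SOL1, named after its value was seen, was not called (0.28, edgeR adjusted p = 0.0557). SHB17, the sedoheptulose bisphosphatase gene, rose by 0.20, close to the threshold (edgeR adjusted p = 0.0486).

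Among users of pathway products, 4 of 5 genes of phosphoribosyl pyrophosphate synthetase were called higher and 0 lower, with a median of 0.43. These were PRS2 (0.65), PRS1 (0.43), PRS5 (0.43) and PRS3 (0.33). Of 4 genes of the shikimate pathway, which starts from erythrose 4-phosphate, 3 were called higher and 0 lower, with a median of 0.29, ARO3 at 0.60, ARO4 at 0.31 and ARO1 at 0.28.

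Other sources of NADPH were mixed. Of 8 such genes 5 were called higher and 1 lower, with a median of 0.29. The cytosolic isocitrate dehydrogenase gene IDP2 rose by 0.72 from a low level (6.11 ± 0.997 to 10.1 ± 0.0984 CPM, SD, n = 3), the malic enzyme gene MAE1 by 0.56 and the acetaldehyde dehydrogenase gene ALD6, the most abundant of the list at 702 ± 15.7 CPM in young cells, by 0.40. The NAD kinase genes YEF1 and UTR1 rose by 0.35 and 0.22 (edgeR adjusted p = 0.0179 and 0.0206). The peroxisomal IDP3 fell by 0.39 (edgeR adjusted p = 0.0181). Of 8 genes of NADPH-dependent reductases 4 were called higher and 1 lower, with a median of 0.20. Those higher were GRE3 (0.55), TRR2 (0.53), ADH6 (0.48) and the glutathione reductase gene GLR1 (0.26, edgeR adjusted p = 0.0369). The cytosolic thioredoxin reductase gene TRR1 was lower (−0.21, edgeR adjusted p = 0.0406). PRS3, IDP3, YEF1, UTR1, GLR1 and TRR1 were named after their values were seen.

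Of 6 genes of transcription factors, 1 was called higher and 3 lower, with a median of −0.12. STB5 fell by 0.34 (SE 0.08, edgeR adjusted p = 0.00459), with means of 26.1 ± 0.802 CPM in young and 20.6 ± 1.57 CPM in aged libraries, MSN2 fell by 0.33, MSN4 rose by 0.27, and YAP1, named after its value was seen, fell by 0.22. The other 2 genes of the list, GCR1 and GCR2, also named after their values were seen, were not called (−0.020 and 0.13). All 15 genes on a list of Msn2p and Msn4p stress targets that holds no member were called higher, with a median of 1.24 and a range of 0.69 to 4.54, led by HSP26 (4.54), GPH1 (2.59) and SPI1 (2.57). Their summed level was 1682 to 1850 CPM in young and 4257 to 4432 CPM in aged libraries, and its part in the rise of the minor paralogs was not tested.

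The calls of ZWF1, SOL4, GND1, GND2, TKL2, TAL1 and NQM1 held under every alternative run, and their direction was up in each. Genes of the other lists were not followed under the alternatives, so how far their calls depend on the processing was not tested. With an offset on GC content the rises of ZWF1 and GND1 shrank to 0.31 and 0.18 (edgeR adjusted p = 0.00560 and 0.0480), SOL3 lost its call (0.10, adjusted p = 0.213), and RPE1 and TKL1 were called lower (−0.31 and −0.22, adjusted p = 0.00139 and 0.0306). With total counts alone, which shifted the median of all features to 0.54, all 10 members were called higher, RPE1 and TKL1 by 0.46 and 0.52, or −0.073 and −0.018 relative to that median.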

How the data were processed

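Poly(A)-selected RNA of 3 young and 3 aged samples was sequenced from directional libraries. The authors deposited estimated counts per feature, not normalized, with 1 column per library and no pooling. The submitters' processing notes name bcl2fastq, cutadapt 2.6, STAR 2.7.6a, featureCounts, Subread 1.6.2 and build R64, and the strand setting and the sharing of reads between features are not given in the sources used here. Between 54.3% and 59.5% of values in a library were not whole. Columns were matched to samples by library name, and 0 were left unassigned.

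Counts were rounded, features kept with filterByExpr (minimum count 10) and tested with edgeR 4.0.16 in R 4.3.3 (glmQLFit, glmQLFTest, group as the only term), two-sided. The fit was first run on simulated data with few changed genes, as many up as down. That run cannot test the scaling where most features change. The TMM factors did not overlap between groups, from 0.765 to 0.896 in young and from 1.145 to 1.237 in aged libraries. SEs came from the F statistic. Paralog ratios used the unrounded counts and the coding lengths of RefSeq R64. Alternatives were DESeq2 size factors, upper-quartile factors or total counts, other filters, DESeq2 1.42.0, limma-voom (limma 3.58.1), a replicate block, a loess offset on GC content (87.6% of features had a value), a threshold of 0.01 and leaving out each library. The labels give the replicate number as a batch number. Libraries of the same number were treated as pairs in the replicate block and in the values within batches. Deviations from group means of same-numbered libraries correlated at 0.13, 0.33 and 0.12 across features, and those of different numbers at −0.30 to 0.20 (highest for young 1 with aged 3). The labels call the replicates biological. All members were named, and of the other lists RKI1, STB5, SHB17 and up to 3 called genes with the largest change. Members, lists and motifs were chosen with earlier results of these data known.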

Additional observations from a re-analysis of the deposited data

How the results depend on the processing

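Of the 17 alternatives, 14 gave 8 members called higher and 0 lower, as reported. The exceptions were total counts alone, with 10 called higher, and the offset on GC content without and with the replicate block, with 7 called higher and 2 lower each. TKL1, whose value was near 0, changed sign with DESeq2 size factors (−0.020 in edgeR and −0.020 with the Wald test of DESeq2), with the GC offset (−0.22, and −0.22 with the replicate block) and when single libraries were left out (−0.047 to 0.030, below 0 without young replicate 1 or aged replicate 3), and was called higher with total counts alone (0.52). RPE1 changed sign with total counts alone (0.46) and upper-quartile factors (0.015), and was called lower with the GC offset (−0.31, and −0.31 with the block, adjusted p = 0.000941). SOL3 lost its call with that offset (0.10, and 0.10 with the block, adjusted p = 0.207). The cause of these shifts was not tested. The replicate block alone changed no call of a member, and for the paralog ratios it gave gains of 2.90 for GND2, 2.09 for NQM1, 1.66 for SOL4 and 1.10 for TKL2, each with p = 0.25 in an exact sign-flip permutation test, the smallest that 3 pairs allow. Over all features, 4288 changed, and between 3307 and 5201 did so under the alternatives. Leaving out a library left the gains at 2.83 to 2.98, 1.97 to 2.18, 1.59 to 1.77 and 0.99 to 1.21 in the same order.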

Other observations

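Matches to the Yap1p element TTANTAA, which reads the same on both strands, were found in the 500 bases before the start codon of 3 members, ZWF1 with 1, GND2 with 2 and TKL2 with 1, against 27.2% of 6000 protein-coding genes with at least 1 match.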
